A study of Mus musculus with 48 samples.

Results

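Sorted enteroendocrine cells of the colon were compared between mice that had undergone vertical sleeve gastrectomy (VSG) and sham-operated mice held at the same body weight (sham weight-matched). The 11 libraries, 6 VSG and 5 sham weight-matched, were chosen by their tissue label, colon and rectum combined, and their surgery label, out of 48 libraries from 17 mice, 3 regions and 3 surgery groups. All mice were lean males of the Neurod1-cre-eYFP strain on a C57BL6 background, about 20 weeks old and fed chow except for a liquid diet around the operation. In VSG mice most of the stomach was excised and the remainder closed, and in sham mice a suture was placed without constricting the intact stomach. Sham weight-matched mice received rationed food in repeated portions each day so that their weight followed that of the VSG group. The hours of these portions are not given in the sources used here. A further group, sham ad libitum (5 colon libraries), ate freely and is given here only for reference. VSG mice also received weekly injections of vitamin B12. Surgery, B12 and the feeding schedule therefore cannot be told apart in this comparison. Tissue was taken 6 weeks after surgery, after an overnight fast and about 15 min after an oral glucose load of 3 g/kg. The hour of day at which each group was killed is not given in the sources used here and could not be set beside the results. Viable cells that carried the yellow fluorescent protein driven by the Neurod1 lineage and lacked the leukocyte marker CD45 were sorted, and 1 library was made per mouse and region.

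Enteroendocrine cells are scattered hormone-secreting cells of the gut epithelium, and those of the colon make peptides such as GLP-1, peptide YY and INSL5 as well as serotonin. Like most cells they contain a circadian clock, a loop of transcription factors in which ARNTL (BMAL1) with CLOCK or NPAS2 switches on the genes of its own repressors, the PER and CRY proteins and the nuclear receptors NR1D1 and NR1D2 (REV-ERBs). ROR receptors activate and REV-ERBs repress Arntl, and the loop drives output factors such as DBP, TEF and HLF, which activate genes with D-box elements, and NFIL3, which represses the same genes. In peripheral tissues the time of feeding is a strong cue for this clock.

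The 11 libraries held between 4891889 and 8777721 counts, with a median of 6367749. Mitochondrial genes took 21.04% ± 3.28 (SD, n = 6) of the counts in VSG and 20.6% ± 4.53 (SD, n = 5) in sham weight-matched libraries. All 10 enteroendocrine markers, among them Neurod1, Chga and Chgb, were detected, and their summed level was 36896 to 66812 counts per 1000000 (CPM) in VSG and 29616 to 72169 CPM in sham weight-matched libraries. Chga, which encodes the granule protein chromogranin A, alone stood at 19632 CPM in VSG and 20681 CPM in sham weight-matched libraries on average. Colonocyte markers summed to 4024 to 8006 CPM in VSG and 3733 to 7311 CPM in sham weight-matched libraries, and goblet cell markers to 4109 to 14104 CPM and 3176 to 13685 CPM, so that transcripts of other epithelial cells were present in both groups. None of 15 measures, namely total counts, genes with a count, mitochondrial share and 12 marker lists, passed the test of a difference between the groups (exact permutation test over all partitions, two-sided, lowest p = 0.171, adjusted p = 0.965). In such bulk libraries, fewer cells of a type and less RNA per cell cannot be told apart.

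VSG and sham weight-matched colon libraries differed in 9 genes, and 6 of these belong to the circadian clock. The clock activators Arntl and Npas2, the repressor Cry1 and the output repressor Nfil3 were higher in VSG mice, whereas the output activator Dbp and the receptor Nr1d2 were lower. The other 3 genes, all higher in VSG mice, were Ces1d, Myrfl and Tmem252. These 9 genes were 0.0595% of the 15126 genes tested, with 7 (0.0463%) higher and 2 (0.0132%) lower in VSG (edgeR quasi-likelihood test, Benjamini-Hochberg adjusted p under 0.05). At an unadjusted p under 0.05 stood 552 genes (3.65%), and in 67 genes (0.443%) the 6 VSG and 5 sham weight-matched libraries did not overlap. The median log2 fold change over all genes tested was 0.0027. Because the 3 regions came from the same mice, the fit was repeated with the mouse as a random block (limma voom), which also called 9 genes, 6 of them shared: Cry1, Tmem252 and Myrfl were lost, and Tef, Nr1d1 and the G protein subunit gene Gna14, named after its values were seen, were gained. When each of 17 mice was left out in turn, 3 to 5 genes passed without sham ad libitum mice 12 or 24, any of the 5 sham weight-matched mice, or VSG mice 22, 25, 28 or 30, and 6 to 9 genes without any other. Dbp, Nfil3 and Arntl passed in all 17 such fits, Ces1d in 11, Myrfl in 6 and Tmem252, Nr1d2, Npas2 and Cry1 in 4. These fits still drew their spread from all 3 regions. In fits to the 16 or the 11 colon libraries alone, Dbp and Nfil3 passed and Arntl did not. Among the 4 VSG and 4 sham weight-matched libraries with second index D504, no gene passed by edgeR (333 at an unadjusted p under 0.05), with log2 fold changes of -2.02 for Dbp, 2.23 for Nfil3 and 1.27 for Arntl, and index D503 held too few libraries for a fit.

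**Figure D1:**
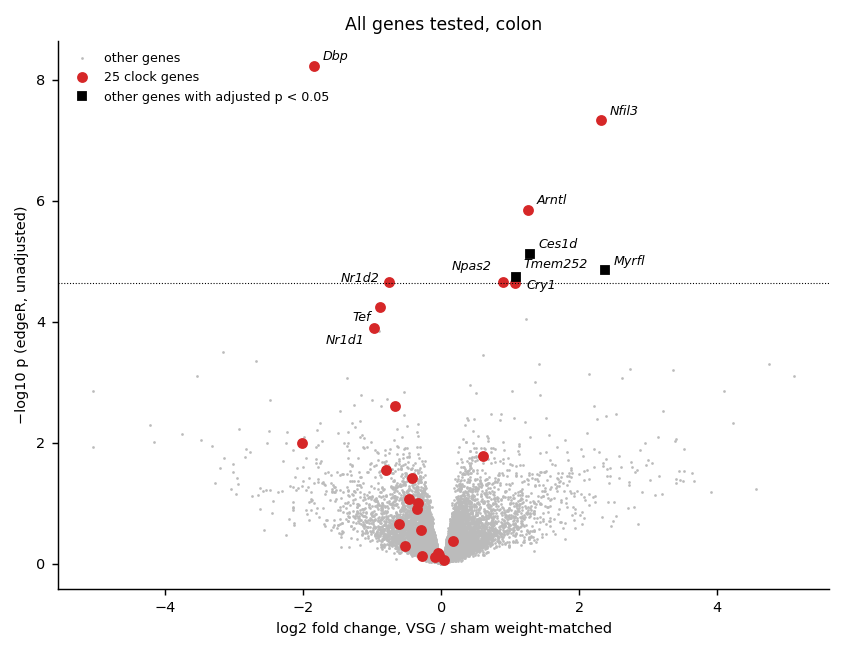
Each point is 1 of the 15126 genes tested in the colon, with the log2 fold change of VSG over sham weight-matched libraries on the x axis and −log10 of the unadjusted p on the y axis. Red circles mark the 25 clock genes, black squares the other genes past the threshold (dotted line). Dbp, Nfil3 and Arntl stand above all other genes.

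Of the 15 core clock genes tested, 3 rose and 1 fell past the threshold, and of the 10 clock output genes 1 rose and 1 fell. The median log2 fold change was -0.09 for the core clock list and -0.43 for the output list, beside 0.0027 for all genes. In 7 of these 25 genes the groups did not overlap and 13 had an unadjusted p under 0.05, beside 0.443% and 3.65% of all genes tested. Past the threshold stood 0.0595% of all genes. The 2 lists were written with clock genes already known to differ in these data, so that their counts are a description.

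Dbp, an activator of D-box genes and a direct target of ARNTL, had the lowest p of all genes. Its level was 58.0, 61.6, 67.2, 124 and 74.7 CPM in the 5 sham weight-matched libraries. In VSG libraries it ranged from 12.6 to 32.7 CPM with a median of 21.4 CPM. All VSG libraries lay below all sham weight-matched libraries, and mouse 27 of the sham weight-matched group stood highest. The log2 fold change was -1.84 ± 0.260 (SE, edgeR adjusted p = 8.8e-05). Dbp lies on the plus strand of chromosome 7, where its 3′ end overlaps Sphk2 on the opposite strand. Sphk2, a sphingosine kinase, stood at 52.9 ± 3.00 CPM in VSG (SD, n = 6) and 53.1 ± 3.21 CPM in sham weight-matched libraries (SD, n = 5), a log2 fold change of -0.01 ± 0.144 (SE, edgeR adjusted p = 1).

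Nfil3, the repressor that competes with DBP for D-box sites, moved the opposite way. The 5 sham weight-matched libraries held 0.757, 2.05, 2.59, 0.768 and 2.73 CPM. VSG libraries ranged from 4.77 to 12.1 CPM with a median of 9.47 CPM, and none overlapped the sham weight-matched group. Nfil3 had a log2 fold change of 2.31 ± 0.356 (SE, edgeR adjusted p = 0.000351), a 4.96-fold difference, on 354 counts in the VSG and 61 counts in the sham weight-matched libraries.

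Arntl encodes the activator at the centre of the loop. It was found at 17.03, 15.4, 13.2, 5.18 and 12.7 CPM in sham weight-matched libraries. In VSG libraries it ranged from 16.9 to 38.9 CPM with a median of 32.4 CPM. Of the 6 VSG libraries, 5 lay above all sham weight-matched ones, and mouse 18 lay just under the highest of them. For Arntl the log2 fold change was 1.25 ± 0.227 (SE, edgeR adjusted p = 0.00704). Arntl overlaps the predicted gene Gm45355 on the opposite strand, and whether the strand of reads was used in counting is not given in the sources used here.

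Npas2, a partner of ARNTL that can take the place of CLOCK, was at 32.04, 20.1, 30.5, 9.98 and 23.0 CPM in the sham weight-matched group. VSG libraries ranged from 35.9 to 50.3 CPM, with a median of 43.3 CPM, and did not overlap that group. This gave a log2 fold change of 0.89 ± 0.190 (SE, edgeR adjusted p = 0.0389). Clock itself averaged 103 ± 15.9 CPM (SD, n = 6) in VSG and 107 ± 11.8 CPM (SD, n = 5) in sham weight-matched libraries, a log2 fold change of -0.05 with a 95% interval from -0.29 to 0.18.

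Among the repressors, Cry1 was at 7.57, 9.87, 6.40, 6.72 and 6.76 CPM in sham weight-matched libraries. Its VSG values ran from 8.22 to 19.5 CPM with a median of 16.6 CPM. The lowest VSG library, again mouse 18, lay within the sham weight-matched range and the other 5 above it. Cry1 had a log2 fold change of 1.07 ± 0.229 (SE, edgeR adjusted p = 0.0389), and of 0.97 when blocked by mouse, where it did not pass (limma voom adjusted p = 0.349). Its paralog Cry2 had the opposite sign, at -0.42 ± 0.197 (SE, edgeR adjusted p = 1).

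Per2 gave 37.2, 36.1, 38.4, 41.1 and 35.4 CPM in sham weight-matched and 14.9 to 30.4 CPM (median 23.5) in VSG libraries. The groups did not overlap, yet its log2 fold change of -0.67 ± 0.210 did not pass the threshold over all genes (SE, edgeR adjusted p = 0.92, unadjusted p = 0.00243). Per1 had a log2 fold change of -0.36 and Per3 of -0.46, both with an edgeR adjusted p of 1. Ciart, a further repressor of the loop, had only 18 counts in VSG and 64 counts in sham weight-matched libraries, with a log2 fold change of -2.02 ± 0.751 (SE, edgeR adjusted p = 1).

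The REV-ERB receptors connect the loop to Arntl. Nr1d2 stood at 55.9, 55.3, 59.7, 61.8 and 55.9 CPM in sham weight-matched libraries, a narrow spread. VSG libraries ranged from 27.1 to 48.6 CPM, with a median of 31.5 CPM and mouse 18 highest, and lay entirely below. The log2 fold change of Nr1d2 was -0.76 ± 0.161 (SE, edgeR adjusted p = 0.0389).

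Nr1d1 was at 102, 94.2, 110, 118 and 124 CPM in sham weight-matched and at 40.2 to 76.2 CPM (median 53.3) in VSG libraries. Here too the groups did not overlap, but the log2 fold change of -0.97 ± 0.233 missed the threshold (SE, edgeR adjusted p = 0.16). In the fit blocked by mouse Nr1d1 passed, at -0.99 (limma voom adjusted p = 0.0436). Nr1d1 overlaps Thra, the thyroid hormone receptor alpha gene, on the opposite strand, and the log2 fold change of Thra was -0.06 ± 0.125 (SE, edgeR adjusted p = 1). Rora, which encodes an activating ROR receptor, had a log2 fold change of -0.09 ± 0.328 (SE, edgeR adjusted p = 1).

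Among the other output genes, Tef, which encodes a factor of the DBP family, was at 75.3, 77.8, 79.0, 111 and 72.4 CPM in sham weight-matched libraries and at 38.3 to 53.6 CPM (median 43.2) in VSG libraries. The groups did not overlap, and the log2 fold change of -0.88 ± 0.199 came just short of the threshold (SE, edgeR adjusted p = 0.086). Tef passed when blocked by mouse, at -0.85 (limma voom adjusted p = 0.0486). The deubiquitinase gene Usp2 had a log2 fold change of -0.80 ± 0.351 (SE, edgeR adjusted p = 1, unadjusted p = 0.0278). Hlf, Bhlhe40, Bhlhe41, Wee1, Tspan4 and Nampt had log2 fold changes from -0.61 to 0.17, each with an unadjusted p above 0.05.

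**Figure D2:**
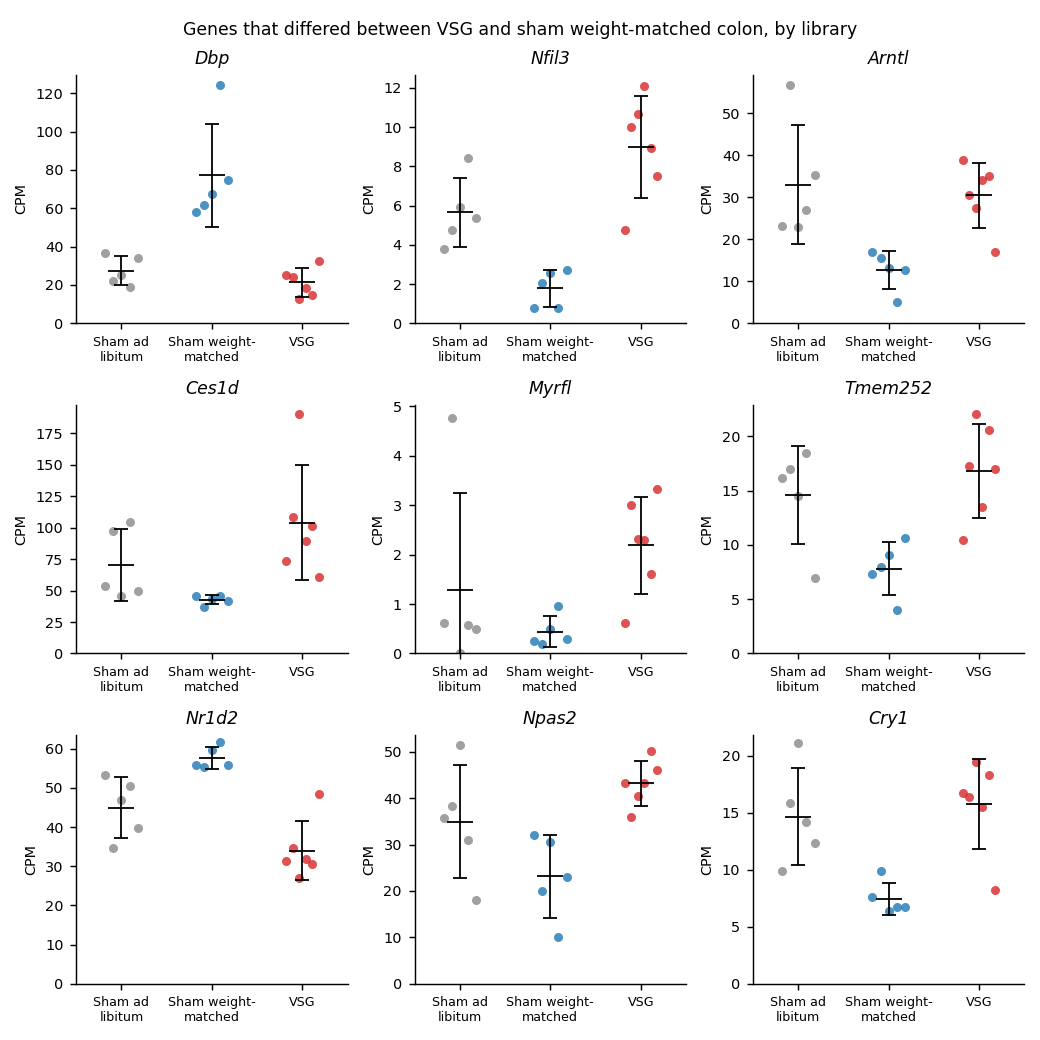
CPM of the 9 genes past the threshold, 1 point per colon library, with the mean and SD of each group as bars. In Dbp, Nfil3, Nr1d2, Npas2 and Ces1d no VSG library overlaps a sham weight-matched one. Sham ad libitum libraries, shown for reference, average 27.5 CPM for Dbp and 33.0 CPM for Arntl.

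The 4 clock genes of lowest p were Nfil3 and Arntl, higher in VSG mice, and Dbp and Nr1d2, lower in VSG mice. The sequences before the start of these genes are shown. Each is the 250 bases before the transcript start listed by RefSeq on GRCm38.p6, in the direction of the gene. They lie at chr7:45704997-45705246 (plus strand) for Dbp, chr13:52981040-52981289 (minus strand) for Nfil3, chr7:113207215-113207464 (plus strand) for Arntl and chr14:18239107-18239356 (minus strand) for Nr1d2. The RefSeq start of Dbp lies 159 bases inside its GENCODE gene, and those of the other genes 0 to 34 bases inside. The letters of 5 clock motifs were searched on both strands, and capitals mark a match.
Dbp: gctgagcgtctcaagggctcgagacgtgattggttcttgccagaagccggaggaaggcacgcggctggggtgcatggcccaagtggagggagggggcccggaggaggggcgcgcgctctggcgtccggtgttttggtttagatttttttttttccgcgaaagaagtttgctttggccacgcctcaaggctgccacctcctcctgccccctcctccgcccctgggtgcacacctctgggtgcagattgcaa
Nfil3: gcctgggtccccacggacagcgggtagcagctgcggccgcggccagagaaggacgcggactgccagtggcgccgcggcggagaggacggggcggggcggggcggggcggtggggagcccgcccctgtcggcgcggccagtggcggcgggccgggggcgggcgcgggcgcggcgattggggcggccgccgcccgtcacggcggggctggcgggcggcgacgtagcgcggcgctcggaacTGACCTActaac
Arntl: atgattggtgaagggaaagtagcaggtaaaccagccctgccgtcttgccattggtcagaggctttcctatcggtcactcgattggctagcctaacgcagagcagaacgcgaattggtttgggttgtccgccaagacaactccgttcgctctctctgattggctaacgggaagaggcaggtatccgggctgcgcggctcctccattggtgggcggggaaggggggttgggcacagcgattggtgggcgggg
Nr1d2: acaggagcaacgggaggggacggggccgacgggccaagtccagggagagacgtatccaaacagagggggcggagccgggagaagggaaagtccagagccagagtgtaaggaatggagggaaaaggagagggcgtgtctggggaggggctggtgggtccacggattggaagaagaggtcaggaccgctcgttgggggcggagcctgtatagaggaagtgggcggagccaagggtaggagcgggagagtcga
The ROR element TAGGTCA occurred once, on the strand opposite to the gene in the Nfil3 promoter and beginning 12 bases before the start, and 2.27% of 27025 RefSeq promoters of this length hold these letters. The ROR variant TGGGTCA (3.21% of promoters), the E-box CACGTG (6.05%), its variant CACGTT (3.93%) and the D-box TTATGNAA (3.23%) were not found in these 4 windows.

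The 3 genes past the threshold that belong to neither clock list were all higher in VSG mice. Ces1d, a carboxylesterase that hydrolyses lipid esters, was at 45.8, 36.9, 43.6, 45.5 and 41.6 CPM in sham weight-matched libraries. In VSG libraries it ranged from 60.9 to 190 CPM, with a median of 95.8 CPM. The groups did not overlap, the VSG group being far more spread out, and the log2 fold change was 1.28 ± 0.254 (SE, edgeR adjusted p = 0.0284).

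Tmem252, which encodes a small membrane protein, was at 7.32, 8.004, 9.11, 4.03 and 10.7 CPM in sham weight-matched and at 10.5 to 22.01 CPM (median 17.1) in VSG libraries. The lowest VSG library fell just inside the sham weight-matched range. Its log2 fold change was 1.09 ± 0.228 (SE, edgeR adjusted p = 0.0389), and 1.03 when blocked by mouse, where Tmem252 did not pass (limma voom adjusted p = 0.216). Myrfl, named for its similarity to the myelin regulatory factor gene, was scarce, with 14 counts over the sham weight-matched libraries and 90 counts over the VSG libraries. It stood at 0.252, 0.186, 0.492, 0.960 and 0.288 CPM in the former and at 0.616 to 3.33 CPM (median 2.30) in the latter, and 1 of 6 VSG libraries overlapped. The log2 fold change of Myrfl was 2.37 ± 0.487 (SE, edgeR adjusted p = 0.0389), and 2.24 when blocked by mouse, where it did not pass either (limma voom adjusted p = 0.897).

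Below the threshold, the genes of lowest p beside Tef and Nr1d1 included the cell cycle factor gene E2f2, with a log2 fold change of 1.23 ± 0.287 (SE, edgeR adjusted p = 0.126). Arap2, a GTPase-activating protein gene, was at 45.0 to 74.8 CPM in VSG and 29.5 to 43.1 CPM in sham weight-matched libraries without overlap, with a log2 fold change of 0.60 ± 0.157 (SE, edgeR adjusted p = 0.353). Other genes of low p rested on few reads. Asgr2, an asialoglycoprotein receptor subunit gene, had 17 counts in VSG and 0 counts in sham weight-matched libraries, and Mylk3, a myosin light chain kinase gene, 0 and 18 counts. Chrna3, a nicotinic receptor subunit gene, had 1 and 16 counts, the zinc finger gene Zfp991 4 and 35 counts, and Tro, the trophinin gene, 17 and 89 counts.

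Sham ad libitum libraries gave a reference that differed between the called genes. For Dbp they ranged from 19 to 36.5 CPM, below every sham weight-matched library and overlapping the VSG libraries. For Arntl they ranged from 22.9 to 56.7 CPM, above every sham weight-matched library and overlapping the VSG libraries. For Nfil3 they ranged from 3.77 to 8.45 CPM, again above the sham weight-matched group. For Nr1d2, at 34.7 to 53.3 CPM, they lay below that group. For Npas2 (17.99 to 51.6 CPM), Tmem252 (6.98 to 18.4 CPM), Ces1d (45.7 to 104.8 CPM) and Myrfl (0 to 4.76 CPM) they overlapped both groups. For Cry1 they ranged from 9.86 to 21.1 CPM, the lowest level with the highest sham weight-matched library. Between VSG and sham ad libitum colon libraries no gene passed the threshold by edgeR, with 950 genes (6.28%) at an unadjusted p under 0.05, none by DESeq2 and 1, the cytokine subunit gene Il12a, by limma voom blocked by mouse, and the log2 fold changes were -0.36 for Dbp, 0.67 for Nfil3, -0.11 for Arntl and -0.40 for Nr1d2. In sham weight-matched against sham ad libitum colon libraries 2 genes (0.0132%) passed, Arntl at -1.36 ± 0.234 (SE, edgeR adjusted p = 0.00783) and Dbp at 1.48 ± 0.272 (SE, edgeR adjusted p = 0.014). Blocked by mouse, Dbp passed in that contrast (limma voom adjusted p = 0.000169) and Arntl did not, at -1.29 (limma voom adjusted p = 0.0521). These contrasts share libraries with the main comparison and are not independent of it.

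In the small intestine of the same mice, the contrast of VSG with sham weight-matched libraries called 34 genes in the duodenum (0.225%) and 7 in the ileum (0.0463%). Dbp was called in both, at -1.35 ± 0.268 in the duodenum (SE, edgeR adjusted p = 0.0134) and at -1.66 ± 0.273 in the ileum (SE, edgeR adjusted p = 0.00302), beside -1.84 in the colon. Nr1d1 was called in both, at -1.30 (edgeR adjusted p = 0.0112) and -1.18 (edgeR adjusted p = 0.0313), beside -0.97 in the colon. Nr1d2 was called in the duodenum at -0.72 (edgeR adjusted p = 0.0418) and had -0.61 in the ileum. Tmem252 was called in the duodenum at 1.02 (edgeR adjusted p = 0.0418) and had 0.98 in the ileum. Blocked by mouse, limma voom called 5 genes in the duodenum and 7 in the ileum. Nr1d1 passed in both of those fits and Dbp in the ileum, whereas in the duodenum Dbp (limma voom adjusted p = 0.0523), Nr1d2 (0.150) and Tmem252 (0.223) did not.

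The clock genes called higher in the colon had smaller log2 fold changes in the small intestine. These genes were picked by their colon values, so that smaller values elsewhere may follow from the choice and are a description. The values were 0.44 in the duodenum and 1.02 in the ileum for Nfil3, 0.62 and 0.65 for Arntl, 0.36 and 0.32 for Npas2, and 0.33 and 0.17 for Cry1. The difference between the colon and the mean of both small intestinal regions was 1.58 ± 0.413 for Nfil3 (SE, edgeR adjusted p = 0.76) and 2.27 ± 0.519 for Myrfl (SE, edgeR adjusted p = 0.571). It was 0.61 for Arntl, 0.55 for Npas2, 0.82 for Cry1 and 1.04 for Ces1d, each with an edgeR adjusted p of at least 0.869. No gene passed the test of this difference over all 15126 genes with edgeR, 733 genes (4.85%) had an unadjusted p under 0.05, DESeq2 called 1 gene, Myrfl, and limma voom none. A difference between colon and small intestine was therefore not shown for any clock gene.

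**Figure D3:**
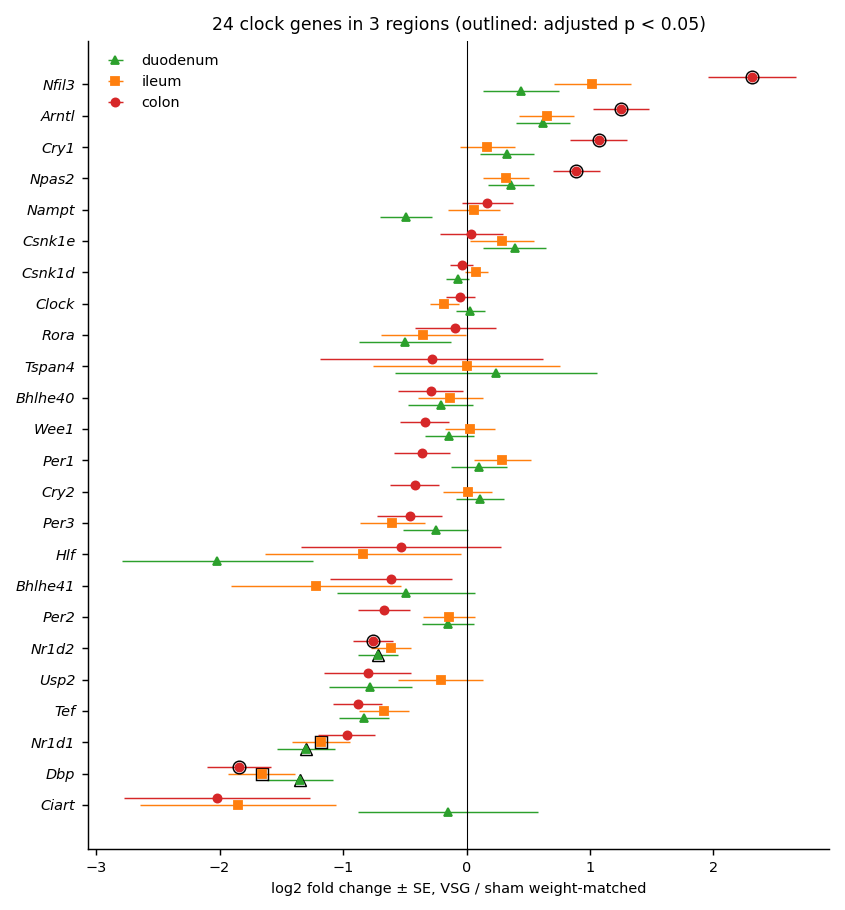
The log2 fold change of VSG over sham weight-matched libraries with its SE for 24 clock genes, in the duodenum (triangles), ileum (squares) and colon (circles), ordered by the colon value. Outlined symbols passed the threshold in that region, 6 genes in the colon. Dbp has -1.35, -1.66 and -1.84 in the 3 regions.

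Outside the clock, 16 further lists of genes with roles in enteroendocrine cells, metabolism, stress or defence held 283 tested genes. None of them passed by edgeR, DESeq2 or limma voom, and 14 higher and 5 lower genes had an unadjusted edgeR p under 0.05, beside 3.65% of all genes. Of all 15126 genes tested, 7659 had a log2 fold change above 0 and 7467 below 0. None of the 12 gut peptide genes passed the threshold, and none had an unadjusted p under 0.05 in any direction. Their median log2 fold change was -0.10, with 8 of 12 below 0. Gcg, the proglucagon gene from which GLP-1 is made, was at 1204, 1882, 551, 185 and 1250 CPM in sham weight-matched and at 307 to 928 CPM (median 634) in VSG libraries. The VSG range lay within the wide sham weight-matched range. Its log2 fold change was -0.71 ± 0.444, with a 95% interval from -1.61 to 0.19 (edgeR adjusted p = 1).

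Pyy, the gene of peptide YY, had a log2 fold change of -0.22 with a 95% interval from -1.02 to 0.59. Insl5, which encodes an orexigenic peptide of distal colon L cells, had -0.41 (-1.31 to 0.49), and Nts, the neurotensin gene, -0.09 (-0.81 to 0.63). Somatostatin (Sst) had -0.57 (-1.61 to 0.46), secretin (Sct) 0.02 (-0.60 to 0.64) and tachykinin 1 (Tac1), which gives substance P, 0.17 (-0.56 to 0.90). Cck, the cholecystokinin gene, had -0.11 (-0.85 to 0.64), Gip -0.04 (-1.24 to 1.16) and amylin (Iapp) 0.16 (-0.72 to 1.03). Ghrelin (Ghrl) had 0.35 (-1.01 to 1.71) and urocortin 3 (Ucn3) -1.12 (-2.96 to 0.72). The intervals of Gcg, Pyy, Insl5, Sst, Gip, Ghrl and Ucn3 include a log2 fold change of -1. Those of Gip, Ghrl and Iapp include 1. For these genes a change of that size was not distinguishable from no difference at this number of libraries.

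**Figure D4:**
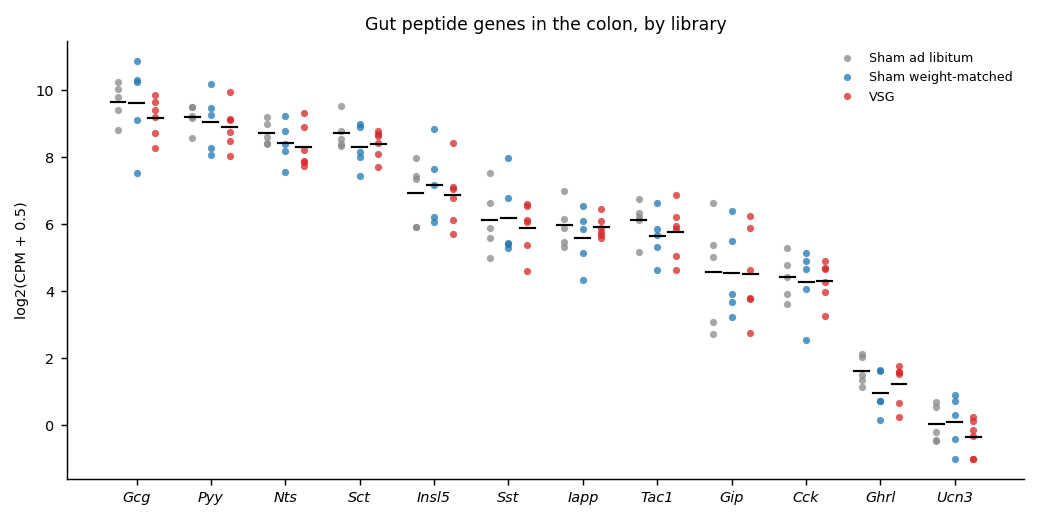
Levels of the 12 gut peptide genes as log2(CPM + 0.5), 1 point per colon library and a line at each group mean, ordered by the sham weight-matched mean CPM. VSG and sham weight-matched libraries overlap for every gene, and Gcg spans 185 to 1882 CPM in the sham weight-matched group.

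Of 14 granins and genes of prohormone processing, none passed the threshold, 12 lay below 0 and the median was -0.09. Chga had a log2 fold change of -0.08 (95% interval -0.63 to 0.48), Pcsk1, the convertase that cuts proglucagon to GLP-1, -0.09 (-0.55 to 0.38), and Pam, which amidates peptide ends, -0.26 (-0.64 to 0.12). The one member far from the rest, the convertase gene Pcsk2 at 1.59 ± 0.804, rested on 32 and 9 counts (SE, edgeR adjusted p = 1). Of 10 genes of serotonin synthesis and handling none passed, with a median of -0.11. Tph1, the rate-limiting enzyme of serotonin synthesis, had -0.12 (95% interval -0.69 to 0.45). Maob, a monoamine oxidase gene, had -0.24 in the colon and was called in the ileum at -0.88 (edgeR adjusted p = 0.0209).

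Of 25 enteroendocrine transcription factors, 21 lay below 0, beside 7467 of all 15126 genes tested. Their median was -0.27, with none past the threshold. The 2 of lowest p were the intestinal factor Cdx2 at 0.27 ± 0.101 and the delta cell factor Hhex at -2.82 ± 1.09, the latter on 3 and 19 counts (SE, edgeR adjusted p = 1 for both). The 10 enteroendocrine markers also all lay below 0, with a median of -0.15, beside medians of 0.24 for colonocyte and 0.26 for goblet cell markers, and the part of sort purity in these values was not tested.

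Among 17 nutrient and bile acid receptors none passed and the median was -0.06. Casr, the calcium-sensing receptor that also responds to amino acids, was at 11.9, 12.5, 5.17, 5.57 and 8.92 CPM in sham weight-matched and 1.69 to 5.67 CPM (median 3.09) in VSG libraries. Of the 6 VSG libraries, 5 lay under the sham weight-matched range, and the log2 fold change was -1.26 ± 0.391 (SE, edgeR adjusted p = 0.92). Ffar4, a long-chain fatty acid receptor gene, had 0.72 ± 0.277 (SE, edgeR adjusted p = 1). Among 26 hormone and transmitter receptors, again with none past the threshold and a median of 0.01, the muscarinic receptor gene Chrm3 was at 1.54 to 3.66 CPM in VSG and 0.378 to 1.53 CPM in sham weight-matched libraries. These did not overlap, and the log2 fold change was 1.44 ± 0.431 (SE, edgeR adjusted p = 0.73). Sstr2, a somatostatin receptor gene, had 0.78 ± 0.372 (SE, edgeR adjusted p = 1).

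No gene passed among 22 excitability and secretion channels (median -0.20) or 17 sugar, amino acid and peptide transporters (median 0.00). The mechanosensitive channel gene Piezo2 had a log2 fold change of -0.75 ± 0.401 and the fructose transporter gene Slc2a5 -1.08 ± 0.478 (SE, edgeR adjusted p = 1 for both). The amino acid transporter gene Slc38a2 had 0.15 ± 0.134 (SE, edgeR adjusted p = 1).

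The list of mucosal defence and inflammation genes had the highest median of all lists that are not cell type markers, at 0.62. Of its 23 tested members 21 lay above 0, beside 7659 of all 15126 genes tested. No member passed the threshold and 5 had an unadjusted p under 0.05, beside 3.65% of all genes. In the duodenum and ileum of the same mice the list had medians of 0.45 and 1.18, with 2 members called in the ileum. Reg3b, an antimicrobial lectin, was at 46.8, 29.2, 81.4, 41.5 and 111 CPM in sham weight-matched and at 62.6 to 1043 CPM (median 92.1) in VSG libraries. The groups overlapped, and VSG mice 25 and 11 stood apart from the other 4 at 1043 and 370.0 CPM. Reg3b had a log2 fold change of 2.21 ± 0.684 (SE, edgeR adjusted p = 0.926). Zc3h12a, an RNase that degrades inflammatory transcripts, had 0.68 ± 0.279 (SE, edgeR adjusted p = 1).

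Of the goblet cell markers 9 of 10 had a log2 fold change above 0, with a median of 0.26, and of the colonocyte markers 9 of 12, with a median of 0.24, none past the threshold. Reg3b and several other members are also made by such cells, and the part of other epithelial cells in the list was not tested. The 8 immune markers tested had log2 fold changes from -2.73 (Gzmb) to 3.10 (Cd3e) with a median of -0.08, 4 above and 4 below 0 and none past the threshold, and the most abundant, the MHC class II chaperone gene Cd74, averaged 8.04 CPM in VSG and 31.4 CPM in sham weight-matched libraries. Cd79a, Cd79b, Jchain, Csf1r and Itgax were too low to be tested. All immune markers summed to 2.92 to 29.3 CPM in VSG and 3.53 to 136 CPM in sham weight-matched libraries. Markers of tuft cells (median 0.43), small intestinal enterocytes (0.41), crypt cells (0.01) and Paneth cells (0.01) likewise held no gene past the threshold. Nor did those of stroma (-0.06, 4 of 14 tested), enteric neurons and glia (-0.63, 4 of 10), acinar cells (-0.17, 2 of 10) and blood (-0.28, 1 of 5). The latter medians rest on few genes. Of the enterocyte markers 8 lay above and 2 below 0. Among them Sis had -0.78 ± 0.238 (SE, edgeR unadjusted p = 0.00188) and Apoa1 1.26 ± 0.601 (SE, edgeR unadjusted p = 0.0418).

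Immediate early genes, which respond to stimulation and to handling of tissue, had a median of 0.37, with none past the threshold. Of the 16 tested members 15 lay above 0, beside 7659 of all 15126 genes tested. In the duodenum and ileum of the same mice the medians of this list were 0.69 and 0.80. Arc, an activity-regulated gene, had 1.74 ± 0.808 and Jun 0.46 ± 0.333 (SE, edgeR adjusted p = 1 for both). In the heat shock list (median 0.11) the constitutive chaperone Hspa8 had 0.27 ± 0.120 and the inducible Hspa1a 1.51 ± 0.922 (SE, edgeR adjusted p = 1 for both). For the unfolded protein response the median was 0.08, with the endoplasmic reticulum chaperone Hspa5 at 0.25 ± 0.117 and the secreted ER protein Manf at 0.27 ± 0.134 (SE, edgeR adjusted p = 1 for both).

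Genes that respond to corticosteroids, with the metallothioneins, had a median of 0.31. Tsc22d3 (GILZ), a glucocorticoid target, had 0.62 ± 0.253, and Klf9, another, -0.34 ± 0.200 (SE, edgeR adjusted p = 1 for both). Genes of fat oxidation in fasting had a median of 0.19 with 15 of 19 above 0, including the acyl-CoA dehydrogenase Acadl at 0.25 ± 0.153 and the lipase inhibitor Angptl4 at 0.91 ± 0.589 (SE, edgeR adjusted p = 1 for both). Cholesterol synthesis genes had a median of -0.10, with Insig1, a sterol-regulated inhibitor of SREBP processing, at -0.45 ± 0.300 (SE, edgeR adjusted p = 1). Interferon response genes had a median of 0.06, with the GTPase genes Gbp2 at 0.93 ± 0.775 and Iigp1 at -2.49 ± 1.29 (SE, edgeR adjusted p = 1 for both). No gene of these lists passed the threshold.

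No separation of the libraries by surgery group was detected over their most variable genes. Over the 100 most variable genes of the 11 libraries, 11.5% of the summed squares lay between VSG and sham weight-matched mice (exact permutation test over all partitions, one-sided, p = 0.284). Only 2 of the 11 libraries had a library of their own group as nearest neighbour. The first 2 principal components held 31.96% and 21.1% of the variance.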

How the data were processed

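The authors deposited 1 table of raw counts per gene, made from 50-base single-end reads aligned with STAR 2.5.1 to GRCm38 and counted on Ensembl release 91 genes. Of 53465 genes, 53360 were matched to GENCODE M21. Counts of all 48 libraries were fitted together, as in the study's design, with edgeR 4.0.16 in R 4.3.3, using filterByExpr, TMM scaling, 1 mean for each of 9 groups and the robust quasi-likelihood test, with Benjamini-Hochberg adjustment at 0.05. Each standard error was taken from the log2 fold change and its F statistic, and 95% intervals use the t distribution. CPM were scaled by TMM. The steps were tested on simulated data. Simulated counts for the edgeR fit were drawn without a mouse effect, so that they do not test the dependence between regions of the same mouse. No 2 libraries of a group were duplicates. The edgeR p-values rest on the spread between libraries within the 9 groups, with the regions of the same mouse treated as independent. They therefore do not measure the spread between colon libraries alone.

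The members and gene lists were chosen with earlier results of these data known. Named genes were those past the threshold, the 10 of lowest p per direction, the 2 of lowest p of each list and all gut peptides. Other clock genes, Sphk2, Thra, Chga, Pcsk1 and Tph1 were added after their values were seen. For mouse 12 the tissue label was used although its description code crosses ileum and colon. VSG and sham weight-matched mice are different animals and are not paired. Across regions of the same mouse, deviations from the group means correlated with a median r of 0.135 over 22 pairs, 13 of them over 0.1. Alternatives were DESeq2 1.42.0, its size factors, 2 other filters, voom of limma 3.58.1 blocked by mouse, fewer libraries and a library index covariate. Human samples were not analysed here, and 5 genes that meet the naming rule or belong to a list are counted but not reported by name.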

Additional observations from a re-analysis of the deposited data

Results flagged for a closer look

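Within each group, the highest or lowest library was compared with its nearest neighbour by Dixon's ratio for the measures of library make-up and the named genes. For genes the ratio was taken on log2(CPM + 0.5), whereas the gene values printed below are CPM. Of 128 groups examined, 13 held a library that stood apart. The nominal rate of about 1 in 20 assumes independent values. These measures and genes share the same libraries, so that no excess is read from the count. VSG mouse 18 was lowest for colonocyte markers (mean log2 CPM 6.83, others 8.01 to 8.49) and goblet cell markers (6.83, others 7.75 to 8.03), and highest for blood markers (0.900, others up to -0.32). The same library was lowest of the VSG group for Cry1 (8.22 CPM, others 15.5 to 19.5) and Ffar4 (8.64 CPM, others 15.05 to 20.8). Without it, the log2 fold change was 1.21 for Cry1 and 1.38 for Arntl. Sham weight-matched mouse 27 was lowest for Arntl (5.18 CPM, others 12.7 to 17.03) and highest for Tef (111 CPM, others 72.4 to 79.0), and without it the log2 fold change was 1.06 for Arntl and -1.61 for Dbp. Sham weight-matched mouse 29 was highest for blood markers (0.608, others -1, the value with no reads). VSG mouse 28 was lowest for crypt markers (3.68, others 4.08 to 4.25) and highest for Slc18a2, a vesicular monoamine transporter gene (4.11 CPM, others 0.616 to 1.25). VSG mouse 11 was highest for Arap2 (74.8 CPM, others 45.0 to 51.6) and Hspa1a (10 CPM, others 0.229 to 1.04) and lowest for Pam (609 CPM, others 804 to 857).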

How the results depend on the processing

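The comparison of VSG with sham weight-matched colon gave 9 genes by edgeR, 15 by DESeq2 (9 of them shared), 4 with no filter on low counts (40391 genes tested), 4 without the ileum and colon libraries of mouse 12, 14 without the duodenum library of mouse 27, and 0 by edgeR in the 4 VSG and 4 sham weight-matched libraries with second index D504 (333 genes at an unadjusted p under 0.05), a fit with fewer samples in which Dbp and Nfil3 each had an adjusted p of 0.0913. The fit with the mouse as a replicate block (limma voom, correlation within a mouse 0.128) gave 9 genes, 6 of them shared, lost Tmem252, Myrfl and Cry1, and beyond Nr1d1 and Tef changed no call of the other genes that met the naming rule in this comparison, and no paired test of VSG against sham weight-matched mice was possible because they are different animals. DESeq2's size factors gave 7 genes, without Npas2 and Cry1, and the stricter filter 9. The index covariate gave 8, without Npas2. The 16 colon libraries alone gave 7 (3 shared, Dbp, Nfil3 and Nr1d2) and the 11 libraries alone 6 (2 shared, Dbp and Nfil3). Arntl passed in neither of these colon fits. Leaving out 1 mouse gave 3 to 9 genes: 3 without VSG mouse 25 or mouse 16 of the sham weight-matched group, 4 without sham ad libitum mice 12 or 24, sham weight-matched mice 21, 29 or 31 or VSG mice 22, 28 or 30, 5 without sham weight-matched mouse 27, and 6 to 9 without any other. Of 28 alternatives, Dbp and Nfil3 passed in 27 and Arntl in 25, with no sign change. Ces1d passed in 18, Nr1d2 in 11, Myrfl in 11 of 27, Tmem252 and Npas2 in 9 and Cry1 in 8, with log2 fold changes when 1 mouse was left out of 1.02 to 1.40, -0.89 to -0.70, 2.17 to 2.76, 0.92 to 1.22, 0.70 to 1.04 and 1 to 1.21, and the cause of these losses was not tested. Nr1d1 and Tef each passed under 5 alternatives, among them DESeq2 and the replicate block. The test of colon against small intestine gave 0 genes, and 1, Myrfl, by DESeq2 and without sham ad libitum mouse 32 (range 0 to 1).

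Of 62 genes that met the naming rule, 11 changed sign under some alternative, and the cause was not tested. With 1 mouse left out the log2 fold changes ran from -1.02 to 0.26 for Slc18a2, -0.17 to 2.06 for Hspa1a, -0.50 to 0.15 for Pyy, -0.90 to 0.22 for Insl5, -0.78 to 0.16 for Sst, -0.35 to 0.14 for Nts, -0.35 to 0.11 for Cck, -0.13 to 0.50 for Tac1, -0.52 to 0.65 for Gip, -0.14 to 0.21 for Sct and -0.06 to 0.44 for Iapp. In the D504 libraries they were 0.64 for Slc18a2, 0.11 for Pyy and 0.04 for Gip, and with the replicate block 0.01 for Cck and 0.08 for Gip. Among the library measures, summed CPM in place of mean log2 CPM turned the VSG difference to 0.0279 for enteroendocrine, -0.0107 for small intestinal enterocyte, 0.00501 for stromal and -0.106 for acinar markers. With 1 library left out, differences ran from -0.265 to 0.0305 for enteroendocrine, -0.0606 to 0.315 for small intestinal enterocyte, -0.190 to 0.0552 for stromal, -0.0239 to 0.0562 for acinar, -0.119 to 0.152 for immune, -0.0578 to 0.536 for blood and -0.0153 to 0.403 for colonocyte markers, and from -544240 to 232926 total counts, -443.0 to 539.6 genes with a count and -0.439 to 2.02 percentage points of mitochondrial counts. The share of summed squares between the groups was 8.86% to 15.2% over its alternatives, never with an exact p under 0.05. Depth limits the genes with few counts named above.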
